A study of Mus musculus with 24 samples.

Results

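The Usp17l genes are a small family of deubiquitinase genes on mouse chromosome 7, and 5 of the 24016 genes in the deposited gene table belong to it: Usp17la, Usp17lb, Usp17lc, Usp17ld and Usp17le. They were chosen by symbol from an earlier look at these data, in which several of them stood higher in G9a knockout than in parental stem cells. That difference is therefore described and not tested here. The cells were female mouse embryonic stem cells. The knockout (KO) of G9a, a methyltransferase of histone H3 lysine 9, was made in the 16.7 Tsix +/TST line, whose parental cells served as WT, so both lines carry the altered Tsix allele. Each line was taken undifferentiated (day 0) and on day 10 of differentiation, which began with LIF withdrawal, 4 days in suspension and 6 days on gelatin. The 4 groups of KO at day 0, WT at day 0, KO at day 10 and WT at day 10 held 3 total RNA libraries each, 12 in all, and 1 H3K9ac ChIP sample each. The labels do not say whether the knockout was 1 clone, and they give every RNA library its own donor number without saying whether cultures were separate, so p-values measure only the spread between these libraries.

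Ubiquitin is a small protein that cells attach to other proteins to mark them for degradation or to change what they do, and deubiquitinases of the USP class are cysteine proteases that cut it off again. The mouse Usp17l genes were first known as Dub genes, found as immediate early genes that cytokines switch on in lymphoid cells, with Usp17la as Dub1 and Usp17lc as Dub2. In embryonic stem cells the family is known as part of the gene set of the 2-cell-like state, a rare and passing state in which genes of the 2-cell embryo, such as the Zscan4 genes and targets of the factor Dux, come on. The copies resemble each other closely, so reads from one can be counted on another.

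In the deposited table, on mm9, the family lies in pairs and a trio spread over 1613 kb. Usp17ld (chr7:110398600-110401019, minus strand) and Usp17lc (chr7:110565210-110567688, plus strand) are 164.2 kb apart. After a gap of 1348.9 kb follow Usp17le (chr7:111916563-111925984, minus strand), Usp17lb (chr7:111988826-111991018, minus strand) and Usp17la (chr7:112005530-112011181, plus strand). The gaps between these last are 62.8 kb and 14.5 kb.

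The promoters of 4 of the 5 genes were matched by symbol in RefSeq (GRCm38.p6, a different build from that of the deposited files) and are shown because they let the likeness of the copies be seen. Each line gives the 250 bases before the annotated start, read 5′ to 3′ on the gene's own strand. Capitals mark CCAAT, read on either strand (ATTGG on the strand shown), and the TATA box or the bases at its place. The windows are chr7:104856766-104857015 (plus) for Usp17la, chr7:104842584-104842833 (minus) for Usp17lb, chr7:103416446-103416695 (plus) for Usp17lc and chr7:103252506-103252755 (minus) for Usp17ld.
Usp17la: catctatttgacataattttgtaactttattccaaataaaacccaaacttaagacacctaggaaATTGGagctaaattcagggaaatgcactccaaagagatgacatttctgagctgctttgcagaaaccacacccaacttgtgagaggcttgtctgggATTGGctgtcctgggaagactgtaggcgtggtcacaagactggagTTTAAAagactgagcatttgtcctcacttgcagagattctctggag
Usp17lb: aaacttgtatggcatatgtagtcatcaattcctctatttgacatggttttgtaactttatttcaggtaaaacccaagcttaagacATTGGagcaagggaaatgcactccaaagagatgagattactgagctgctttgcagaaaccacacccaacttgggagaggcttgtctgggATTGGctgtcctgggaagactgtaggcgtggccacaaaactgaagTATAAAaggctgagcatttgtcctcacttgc
Usp17lc: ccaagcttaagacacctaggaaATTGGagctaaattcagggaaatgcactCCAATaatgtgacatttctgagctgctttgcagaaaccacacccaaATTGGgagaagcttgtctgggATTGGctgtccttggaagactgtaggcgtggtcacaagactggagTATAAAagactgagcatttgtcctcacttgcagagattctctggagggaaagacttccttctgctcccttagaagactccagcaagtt
Usp17ld: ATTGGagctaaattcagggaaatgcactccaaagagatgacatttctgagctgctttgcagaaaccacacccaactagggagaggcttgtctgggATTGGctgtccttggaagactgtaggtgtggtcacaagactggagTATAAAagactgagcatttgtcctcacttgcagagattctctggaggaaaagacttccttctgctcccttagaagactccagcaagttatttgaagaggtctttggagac
Over their aligned columns the promoters were between 87.1% (Usp17la with Usp17lb) and 97.3% (Usp17la with Usp17ld) identical. TATAAA, the core promoter box bound by TBP, stood in Usp17lb, Usp17lc and Usp17ld, where 12.37% of 32851 promoters of the same length hold it. At its place Usp17la has TTTAAA, the substitution A2T against Usp17lc, counted from 1 at the 5′ end of the box. The box began 46 bases before the annotated start in Usp17la, 31 in Usp17lb, 88 in Usp17lc and 110 in Usp17ld, so the annotated starts do not sit at one aligned position. CCAAT was in all 4, against 33.85% of promoters. GGGCGG, the GC box, was in 0 of the 4 (32.74% of promoters), and CACGTG, the E-box, in 0 (6.02%). A longer degenerate motif, searched for the factor Dux, was in 0 of the 4 (0.18% of promoters). A different longer motif without free positions, searched alongside it, was also in 0 of the 4 (0.01%). The latter differs from the degenerate motif at fixed positions, so it is not an exact form of it. All motifs were read on both strands, none of those searched overlapped another in these promoters, and a missing match says only that the letters are not in the window.

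Before deposit, the authors brought every library to the same total, and values are given as scaled reads. The libraries fell into 2 depth classes: replicates 2 and 3 of KO day 0 and replicate 3 of WT day 0 held between 21087157 and 30527844 recovered reads (deep), and the other 9 held between 2081129 and 4220140 (shallow). The ribosomal precursor Rn45s took 0.115 to 0.129% of the reads in the deep class and 14.755 to 25.133% in the shallow class, so scaled values of the classes are not on quite the same footing. Olfactory and vomeronasal receptor genes, silent in stem cells, reached 1072.1 and 1093.1 CPM in KO day 0 replicate 1 and WT day 10 replicate 3, against 31.1 to 376.6 CPM in the other libraries. Ehmt2, the gene of G9a, was read at 375.4 to 557.3 scaled reads in KO and 986.8 to 1375.1 in WT at day 0, and at 499.8 to 758.4 in KO and 718.6 to 1358.9 in WT at day 10.

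At day 0 every one of the 5 genes was read higher in all 3 KO libraries than in any WT library, a pattern that 5.5% of the 20624 genes above the low-value filter showed; since the genes were chosen with this contrast known, nothing is read from that count. The summed family held 536, 555 and 527 scaled reads in the KO libraries, against 124, 96.0 and 63.2 in the WT libraries. In the authors' scaling the KO libraries lay within a narrow band and the WT libraries were all far below it. The KO band was wider with RLE scaling, TMM scaling or scaling without Rn45s. The means were 539 ± 14.1 in KO and 94.3 ± 30.3 in WT (SD, n = 3 each), a 5.72-fold difference (log2 2.52). In a bulk sample more cells in such a state and more RNA per cell cannot be told apart.

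Usp17le, the longest gene of the family and known also as Dub3, carried most reads. It had 221, 197 and 192 scaled reads in the KO libraries, against 42.4, 71.0 and 25.6 in the WT libraries. The groups were well apart, although the WT values spread widely around their mean (203 ± 15.5 in KO and 46.4 ± 22.9 in WT, SD, n = 3 each, 4.39-fold). Usp17lb, known as Dub1a, had 99.6, 116 and 99.3 in KO, against 7.07, 0 and 9.96 in WT. The 0 is that of the shallowest of the 12 libraries, WT replicate 2, where a count of 0, taken to allow up to 3 reads, allows up to 12.53 scaled reads. Its ratio of means was 18.49-fold, resting in WT on 37 recovered reads in all, and it was 12.33-fold without WT replicate 2 and 29.69-fold without WT replicate 3.

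Usp17la, the first Dub gene, had 81.0, 114.0 and 103.02 scaled reads in KO, against 21.2, 4.18 and 9.11 in WT. Its lowest KO library stood above every WT library, and the means differed 8.63-fold (99.3 ± 16.8 in KO and 11.5 ± 8.77 in WT, SD, n = 3 each), or 14.95-fold without WT replicate 1. Usp17lc had 106, 105 and 110 in KO, against 38.9, 20.9 and 15.4 in WT. In the authors' scaling Usp17lc was the most even of the 5 within KO (107 ± 2.86), and 4.28-fold above its WT mean of 25.1 ± 12.3. Scaled without Rn45s its KO libraries held 115.7, 89.9 and 94.4. Usp17ld, known as Dub2a, was the lowest of the family in KO, with 28.02, 22.47 and 22.66 in KO, against 14.2, 0 and 3.13 in WT. Its means differed 4.23-fold, or 15.58-fold without WT replicate 1, and its 3 WT libraries held 15 recovered reads together.

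**Figure D1:**
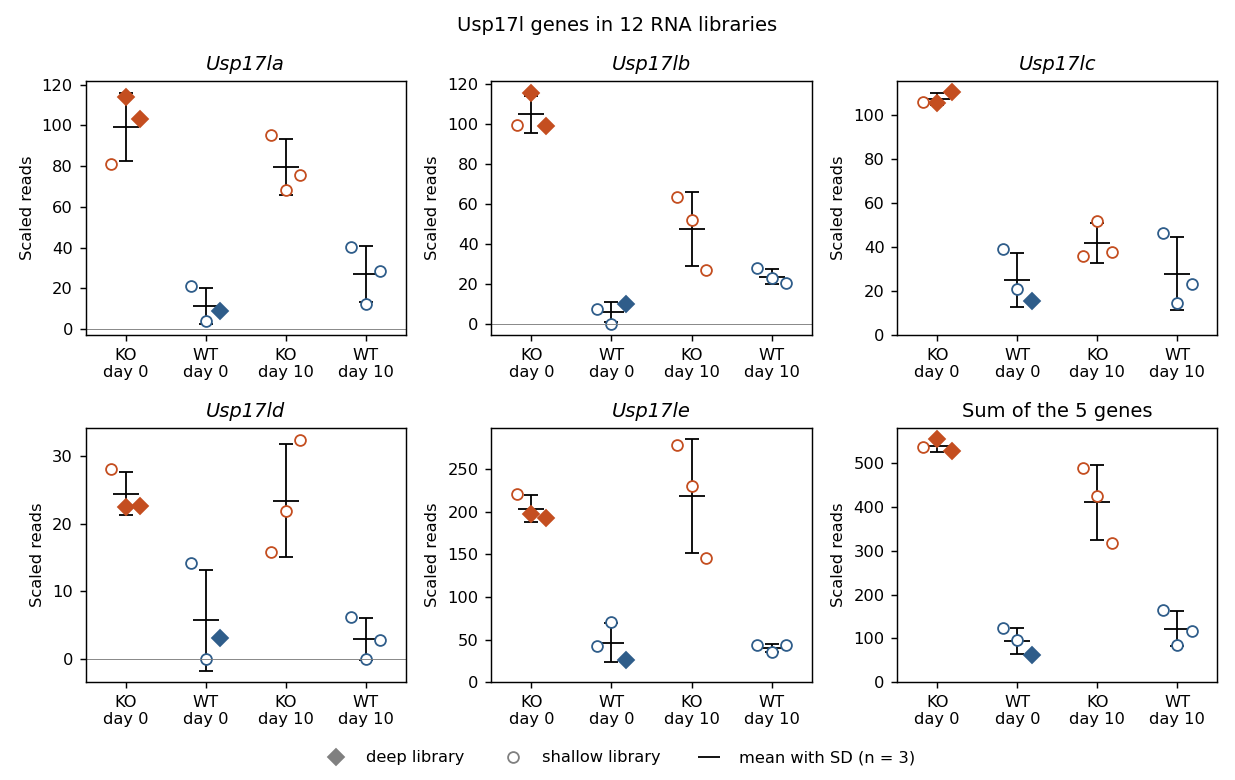
Scaled reads (vertical axes) of each Usp17l gene and of their sum in the 12 libraries (filled diamonds, deep; open circles, shallow), with the mean and SD of each group of 3. All KO libraries of day 0 lie above all WT libraries in each panel; at day 10 the groups overlap in Usp17lb and Usp17lc.

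At day 10 the family was still higher in KO, and less evenly so. The sum was 488, 424 and 318 scaled reads in the KO libraries, against 164, 84.4 and 118 in the WT libraries. The KO libraries were spread more widely than at day 0, and the lowest of them was still well above the highest WT library. The means were 410 ± 85.7 in KO and 122 ± 39.8 in WT (SD, n = 3 each, 3.36-fold, log2 1.75). Of the single genes Usp17la, Usp17ld and Usp17le had all KO libraries above all WT libraries, as 5.54% of the filtered genes did, and again nothing is read from that count.

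Usp17le at day 10 had 278, 230 and 146 scaled reads in KO, against 43.2, 35.0 and 43.1 in WT. The 3 WT libraries were close together and the lowest KO library was far above them (5.38-fold between means). Usp17la had 95.2, 68.5 and 75.5 in KO, against 40.1, 12.4 and 28.7 in WT, a 2.94-fold difference of means with no overlap. Usp17ld had 15.9, 21.9 and 32.4 in KO, against 6.18, 0 and 2.87 in WT. Its WT level rests on 3 recovered reads in all, so the 7.75-fold ratio of means is loose (16.29-fold without WT replicate 1).

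In Usp17lb and Usp17lc the lines overlapped at day 10. Usp17lb had 63.5, 52.0 and 27.0 scaled reads in KO, against 27.8, 22.7 and 20.1 in WT, where the lowest KO library was just under the highest WT library (2.02-fold between means). Usp17lc had 35.7, 52.0 and 37.8 in KO, against 46.3, 14.4 and 22.99 in WT, where WT replicate 1 exceeded 2 of the 3 KO libraries (1.5-fold between means). The comparisons at day 0 and day 10 have no library in common. Both compare the same lines, and both were known when the genes were chosen, so neither is a check on the other. In the authors' deposited table the log2 ratios of KO over WT at day 0 are 3.1 for Usp17la, 3.76 for Usp17lb, 2.12 for Usp17lc, 2.16 for Usp17ld and 2.14 for Usp17le. In the authors' deposited table those at day 10 are 1.67, 1.1, 0.68, 3.01 and 2.53 in the same order of genes.

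The depth classes at day 0 were set apart, since both KO libraries of high depth faced a single deep WT library. Among deep libraries the sum averaged 541 scaled reads in KO (n = 2), against 63.2 in WT (n = 1), an 8.56-fold difference. Among shallow libraries it was 536 in KO (n = 1), against 110 in WT (n = 2), or 4.87-fold. In the authors' scaling the KO level was thus alike in both classes, with only 1 shallow KO library. With RLE scaling or without Rn45s that library stood above both deep KO libraries, and with TMM scaling below both. The deep WT library was the lowest of its group. Its exact Poisson 95% interval was 55.1 to 72.1 scaled reads. Those of WT replicates 1 and 2 were 86.2 to 172.2 and 60.9 to 144.1. Intervals and floors cover counting error only. Each of the 5 genes was higher in KO in both classes, from 7.01-fold (Usp17lc) to 11.91-fold (Usp17la) among deep libraries and from 3.54-fold (Usp17lc) to 28.18-fold (Usp17lb) among shallow ones. Without the 2 libraries rich in olfactory receptor reads, 1 at each day, the log2 ratio of the sums was 2.52 at day 0 and 1.73 at day 10, against 2.52 and 1.75 with all libraries. No class held 2 libraries in each line, and what sets the classes apart was not tested.

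Per kilobase of genomic span the order of the genes differed from that by reads, and it differed between the groups. In KO at day 0 the short Usp17lb and Usp17lc led with 47.9 ± 4.34 and 43.2 ± 1.15 scaled reads per kb (SD, n = 3), and their difference was within the spread. Usp17le (21.6 ± 1.64) and Usp17la (17.6 ± 2.98) followed, overlapping in their spread, and Usp17ld came last at 10.1 ± 1.30. In WT at day 0 Usp17lc led at 10.1 ± 4.97 per kb, and Usp17le (4.92), Usp17lb (2.59), Usp17ld (2.38) and Usp17la (2.04) did not differ beyond their spread. In KO at day 10 Usp17le (23.1 ± 7.10), Usp17lb (21.7 ± 8.52) and Usp17lc (16.9 ± 3.59) overlapped at the top, with Usp17la at 14.1 ± 2.45 and Usp17ld at 9.66 ± 3.45. In WT at day 10 Usp17lc (11.3 ± 6.66) and Usp17lb (10.7 ± 1.78) led, and Usp17la (4.79), Usp17le (4.29) and Usp17ld (1.25) followed. The span counts introns and exons alike, which lowers these values for the 9421 bases of Usp17le and the 5651 of Usp17la against 2192 to 2478 in the other 3.

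The make-up of the sum was even in KO at day 0 and shifted by day 10. Usp17le gave 35.6 to 41.3% of the summed reads in the KO libraries and 34.3 to 73.9% in the WT libraries at day 0. At day 10 it gave 45.8 to 56.9% in the KO libraries and 26.4 to 41.5% in the WT libraries, so that every KO library of day 10 stood above every one of day 0. Usp17lb gave 8.5 to 13.0% in KO at day 10, against 18.6 to 20.9% in KO at day 0. Usp17lc gave 7.3 to 12.3% in KO at day 10, against 19.0 to 20.9% in KO at day 0. The shares of one library add up to a whole, so these 3 movements are not independent of each other.

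**Figure D2:**
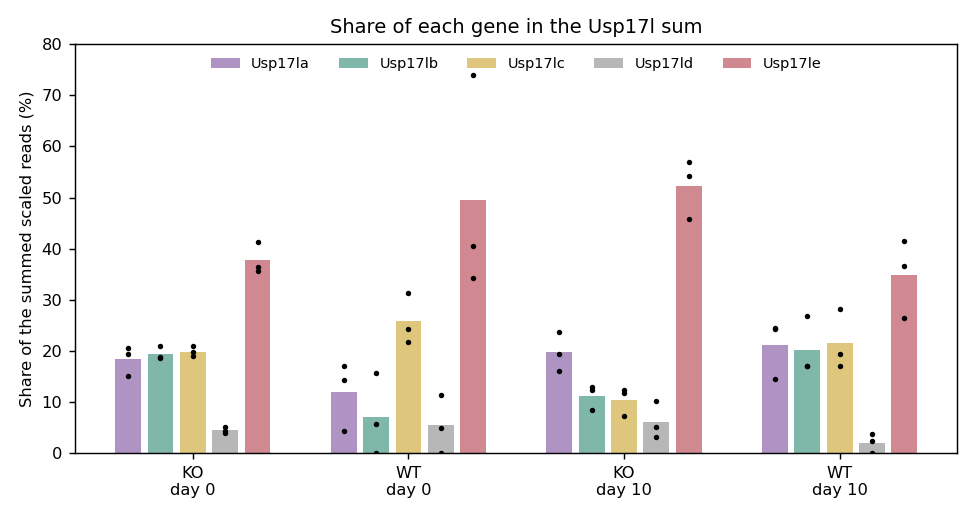
Share of each Usp17l gene in the summed scaled reads (vertical axis, percent) for the 4 groups; bars are means of 3 libraries and dots are single libraries. Usp17le makes up a mean of 37.7% in KO day 0, 49.6% in WT day 0, 52.3% in KO day 10 and 34.8% in WT day 10.

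The change over time within each line was tested. These tests use the same day 0 libraries whose values were known when the genes were chosen. That choice favours a fall from day 0 in KO and a rise from day 0 in WT. A low p-value or a call for such a change is therefore not taken as evidence of it. All 3 deep libraries were of day 0, 2 in KO and 1 in WT, and every day 10 library was shallow. Day and depth class are thus partly confounded, and unequally in the lines. With a depth term the median log2 change of all genes was -0.46 in KO and -0.18 in WT. Without the term it was -0.68 in KO and -0.20 in WT. Over 10 days of differentiation no Usp17l gene passed the test in either line. In the limma fit to log2-transformed scaled reads (20624 genes, Benjamini-Hochberg adjustment), 0 of the 5 were called for day 10 against day 0 in WT, where 4.42% of all genes were. In KO 0 of the 5 were called, where 8.89% of all genes were. At an unadjusted p under 0.05 limma counted 1 of the 5 in WT (Usp17lb) and 1 in KO (Usp17lc), beside 3469 and 6686 of all genes. The edgeR quasi-likelihood test on recovered reads, which kept 4 of the 5 genes, called 0 of them in each line, where it called 7.03% of all genes in either. Without the 2 libraries rich in olfactory receptor reads limma called 0 of the 5 in each line, beside 10.7% of all genes in WT and 27.1% in KO.

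Usp17lb had the largest fitted change in WT. Its WT libraries held 27.8, 22.7 and 20.1 scaled reads at day 10, against 7.07, 0 and 9.96 at day 0, a fitted log2 change of 2.45 (SE 0.81; limma, adjusted p = 0.119). Every WT library of day 10 was above every one of day 0, as in 6.63% of the filtered genes. Its KO libraries went the other way, with 63.5, 52.0 and 27.0 at day 10, against 99.6, 116 and 99.3 at day 0 (log2 -1.21, SE 0.81; limma, adjusted p = 0.301). The change in KO minus the change in WT was -3.66, given with no test because it subtracts the differences between lines that were known when the genes were chosen. DESeq2 alone among the 24 alternative fits called the WT change (log2 1.92, adjusted p = 0.0395, against a range of 0.0395 to 0.431 over the alternatives), in a fit that called 12.2% of all genes.

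Usp17lc in KO held 35.7, 52.0 and 37.8 scaled reads at day 10, against 105.9, 105.2 and 110.4 at day 0. All KO libraries of day 10 were below all of day 0, here and in Usp17lb, as was the case for 36.5% of the filtered genes. The fitted log2 change was -1.36 (SE 0.56; limma, adjusted p = 0.118), beside a median of -0.68 over all genes in KO. With only the 2 KO groups in the limma fit it passed (adjusted p = 0.0317, against a range of 0.0317 to 0.253 over 24 alternatives), in a fit that called 21.5% of all genes, against 8.89% with all libraries. In WT the fitted change of Usp17lc was 0.10 (limma, adjusted p = 0.961), with libraries of 46.3, 14.4 and 22.99 at day 10 and 38.9, 20.9 and 15.4 at day 0.

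The other 3 genes gave smaller fitted changes. Usp17la had a log2 change of 1.27 in WT (SE 0.63; limma, adjusted p = 0.336) and of -0.31 in KO (limma, adjusted p = 0.743). Usp17le had -0.08 in WT (limma, adjusted p = 0.959) and 0.05 in KO (limma, adjusted p = 0.944), and its sign in WT turned with RLE scaling (0.12). Usp17ld had -0.39 in WT (limma, adjusted p = 0.913) and -0.11 in KO (limma, adjusted p = 0.952), and its sign in KO turned with RLE scaling (0.17). A change that misses the threshold at 3 libraries a group does not show that a level stayed the same. The median of all genes was -0.20 in WT and -0.68 in KO, and RLE scaling moved it to -0.01 in WT and -0.41 in KO.

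**Figure D3:**
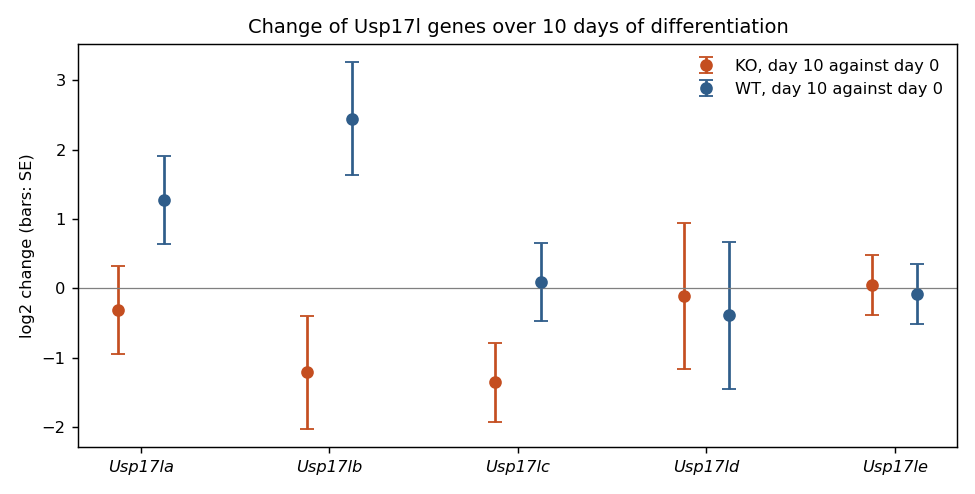
Fitted log2 change of each Usp17l gene between day 10 and day 0 (vertical axis, points with SE from limma over 12 libraries), KO left of WT for each gene. Usp17lb is at -1.21 in KO and 2.45 in WT, and none of the 10 changes passed the test.

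As a sum the family averaged 410 ± 85.7 scaled reads in KO at day 10, against 539 ± 14.1 in KO at day 0 (0.76-fold). Usp17le alone was at 1.07-fold. In the authors' scaling all KO sums of day 10 were below all of day 0, a pattern that 36.5% of the filtered genes showed. With RLE scaling, TMM scaling or scaling without Rn45s the KO sums of the days overlapped. In WT the sum averaged 122 ± 39.8 at day 10, against 94.3 ± 30.3 at day 0 (1.29-fold), with overlapping libraries. Without Usp17le the KO sum at day 10 stood at a log2 of -0.80 against day 0, and with it at -0.39.

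The stretch that holds the family was otherwise nearly silent. Within 500 kb of the family the table holds 127 other genes, 106 of them olfactory receptor genes and 81 lying between the outermost Usp17l genes. The nearest gene before Usp17ld, Olfr594, is listed at 0 in every library, and the nearest after Usp17la, Olfr665, averaged 0.38 scaled reads over the 12. Olfactory receptor genes here averaged 5.38 scaled reads at most, and 96 of the 106 averaged under 1. Only 6 of the 127 averaged 10 or more, all of the Trim family of RING-type ubiquitin ligases and antiviral factors that lies between Usp17lc and Usp17le.

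Among these 6 the most abundant was Trim6, with 797, 1537 and 1575 scaled reads in KO at day 0, against 891, 910 and 1291 in WT. At day 10 it had 1293, 1552 and 1267 in KO, against 1127, 1058 and 537 in WT. The lines overlapped at day 0 and stood apart at day 10. Trim6 was the only neighbour with all KO libraries above all WT libraries at day 10, and Olfr631, at 7.21 ± 9.93 in KO and 0.28 ± 0.49 in WT, was the only one at day 0. Among filtered genes 5.54% showed this at day 10 and 5.5% at day 0, while most neighbours lay near 0 reads. The KO group of day 0 holds replicate 1, a library rich in olfactory receptor reads. Trim30d moved with depth: at day 0 it had 52.9, 217 and 226 in KO, against 17.7, 4.18 and 154 in WT, high in each of the 3 deep libraries. The other 4 (Trim34a, Trim34b, Trim12c and Trim30a) averaged between 12.0 and 37.9 in KO and between 12.9 and 37.7 in WT at day 0, with overlapping libraries.

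**Figure D4:**
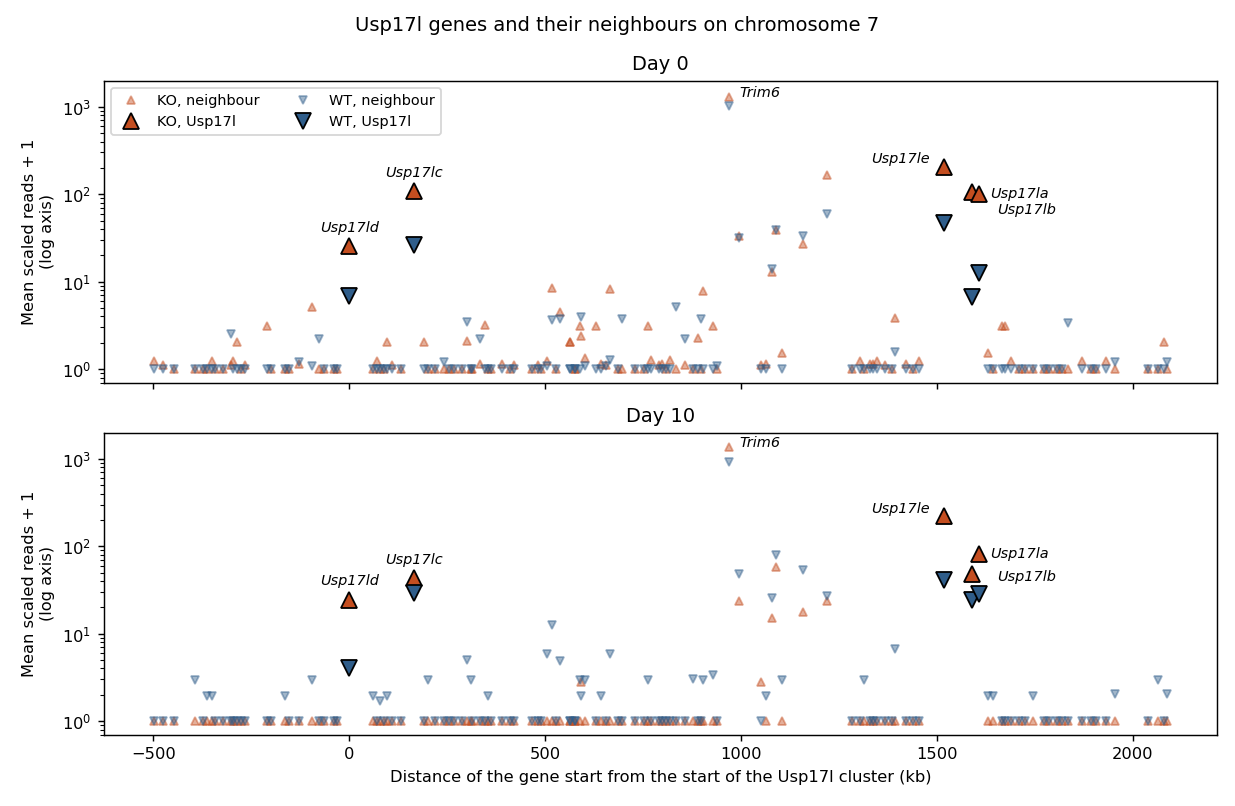
Mean scaled reads plus 1 (vertical log axis) of Usp17l genes (large outlined triangles) and their 127 neighbours (small triangles) by distance from the start of the family in kb, for day 0 and day 10, KO pointing up and WT down. The Usp17l genes and the Trim genes stand out from neighbours that mostly lie near 0 reads.

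Across the 12 libraries the Usp17l genes varied together, with Pearson's r between 0.616 (Usp17lb with Usp17le) and 0.901 (Usp17la with Usp17lb) over their 10 pairs. These values describe libraries that share group, depth class and, for these copies, possibly reads, and they carry no test. Of 16455 other genes averaging at least 10 scaled reads, 12 had r above 0.8 with the log2 sum. Tmem92 was the closest (r = 0.903), with 339, 304 and 283 scaled reads in KO at day 0, against 173, 62.6 and 64.0 in WT. At day 10 it had 496, 342 and 278 in KO, against 58.7, 63.8 and 60.4 in WT, without overlap at either day. Zscan4f, a zinc finger gene of the 2-cell embryo, was close too (0.884), with means of 35.1 ± 4.67 in KO and 14.8 ± 4.20 in WT at day 0 and of 31.4 ± 9.14 in KO and 9.81 ± 5.03 in WT at day 10 (SD, n = 3 each).

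The other 8 closest genes were Gm12794 (0.889), Fam124a (0.856), 1700019E08Rik (0.837), Atp4b (0.831), Cacna1s (0.825), Gm13119 (0.823), Plbd1 (0.823) and Trak2 (0.822). Atp4b encodes the beta subunit of the gastric proton pump, and Cacna1s a calcium channel subunit of skeletal muscle. 1700019E08Rik came nearest to an on-off pattern, with 31.1, 38.4 and 41.2 scaled reads in KO at day 0, against 0, 4.18 and 1.42 in WT. At day 10 it had 31.7, 30.1 and 21.6 in KO, against 0, 0 and 11.5 in WT. Trak2, a motor adaptor of mitochondrial transport, was the most abundant, at 862 ± 12.8 in KO and 603 ± 66.2 in WT at day 0.

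Other genes of the 2-cell-like state were counted from a list of 21 genes outside the family, 19 of which the table holds and 16 of which passed the low-value filter. At day 0, 11 of these 16 had all KO libraries above all WT libraries and 0 had all below, beside 5.5% above and 4.98% below among the filtered genes. The 16 had a median log2 of 1.70 for KO over WT, beside 0.17 over all genes. At day 10, 6 of the 16 stood above and 0 below, beside 5.54% and 12.6% of the filtered genes. Their median was 1.00, beside -0.26 over all genes. The list shares its state with the Usp17l genes by definition and earlier results of these data were known when it was drawn up, so it is a description. Over time limma called 0 of the 16 in WT and 1, lower, in KO, beside 4.42% and 8.89% of all genes, with medians of -0.67 and -0.99, beside -0.20 and -0.68 over all genes.

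By mean level the highest of the list were Tmem92, given above, Zscan4d, Zscan4a and Sp110. Zscan4d had 112, 219 and 213 scaled reads in KO at day 0, against 28.3, 0 and 36.7 in WT, and averaged 92.7 ± 27.3 in KO and 18.2 ± 3.64 in WT at day 10. Zscan4a had 49.8, 232 and 233 in KO at day 0, against 38.9, 16.7 and 37.0 in WT, and averaged 58.8 ± 18.3 in KO and 18.4 ± 16.5 in WT at day 10. In both genes the deep KO libraries, replicates 2 and 3, were well above the shallow one, which in Zscan4a was close to the WT libraries. Sp110 overlapped between the lines, at 101 ± 47.3 in KO and 42.1 ± 46.2 in WT at day 0 and 48.3 ± 21.2 in KO and 45.6 ± 45.1 in WT at day 10. Dux, the factor that switches on this gene set, was low throughout, at 6.42 in KO and 15.4 in WT at day 0 and 13.2 in KO and 7.13 in WT at day 10. BC061212, Tcstv1 and Tcstv3, also genes of this set, are listed at 0 in every library.

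The other genes named Usp and a number, taken by symbol and not by function, had a median close to that of all genes. Of 51 other Usp genes 4 had all KO libraries above all WT libraries and 2 all below at day 0, and 4 and 2 at day 10, beside 5.5% above and 4.98% below among the filtered genes at day 0 and 5.54% and 12.6% at day 10. Their median log2 for KO over WT was 0.07 at day 0, beside 0.17 over all genes, and -0.09 at day 10, beside -0.26. Usp29, an imprinted gene, was the highest at day 0 (log2 0.96, SE 0.42; limma, adjusted p = 0.993), and Usp35 the lowest (-0.68, SE 0.49; limma, adjusted p = 0.993). Between day 10 and day 0 limma called 2 higher and 1 lower in WT, and 1 higher and 3 lower in KO, beside 4.42% of all genes in WT and 8.89% in KO.

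Marker lists were read for what else the libraries could hold. The 8 pluripotency markers summed to 26586 to 34222 scaled reads in KO and 23135 to 41855 in WT at day 0. At day 10 they summed to 9096 to 12223 in KO and 3142 to 6528 in WT, without overlap, so KO libraries of day 10 kept more of them; their part in the Usp17l levels of day 10 was not tested. The 10 lymphoid markers, read because Dub genes are known from lymphoid cells, summed to 341 to 536 in KO and 284 to 405 in WT at day 0, and to 86.3 to 143 in KO and 103 to 500.1 in WT at day 10. They overlapped between the lines at both days, as did the 14 fibroblast markers (9308 to 12127 in KO and 7933 to 23636 in WT at day 0; 17756 to 25880 in KO and 9764 to 22006 in WT at day 10). The 6 trophoblast markers summed to 735 to 1151 in KO and 668 to 1118 in WT at day 0, and to 3681 to 5054 in KO and 2575 to 5602 in WT at day 10. The 6 endoderm markers summed to 288 to 579 in KO and 225 to 305 in WT at day 0, and to 607 to 1009 in KO and 516 to 1308 in WT at day 10. Every marker of these 5 lists had reads. Sums follow their most abundant markers, so single markers were counted too. All KO libraries were above all WT libraries at day 0 in 0 pluripotency, 1 lymphoid, 1 fibroblast, 2 trophoblast and 1 endoderm markers. They were all below in 2, 2, 1, 1 and 0. At day 10 the counts in this order were 7, 1, 0, 1 and 0 above and 0, 3, 0, 1 and 1 below. Among filtered genes 5.5% were above and 4.98% below at day 0, and 5.54% and 12.6% at day 10.

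The deposited allele table assigns reads to the mus and cas alleles of this hybrid line. Over libraries with at least 10 allelic reads of the family, 43.2% of 1210 reads were cas in KO (Wilson 95% interval 40.5 to 46.0) and 46.5% of 99 in WT (37.0 to 56.2) at day 0. At day 10 the share was 35.8% of 173 reads in KO (29.1 to 43.2) and 30.8% of 52 in WT (19.9 to 44.3). The 3 KO libraries of day 0 were at 55.1, 39.3 and 46.2% cas, so they spread more widely than the pooled interval. Both alleles were read in each group, and the intervals of KO and WT overlapped at each day. The median gene of chromosome 7 was at 43.7 to 46.4% cas in the 12 libraries. Pooled over reads, as the family share is, chromosome 7 was at 38.5 to 41.3% cas at day 0 and 37.0 to 39.2% at day 10. No single gene of the family had 10 allelic reads in all 6 libraries of a day. The family sum had them in 5 of 6 libraries at day 0 and in 6 of 6 at day 10. The share was not tested between KO and WT at either day, and overlap of pooled intervals is no such test.

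Usp17ld stood apart from the other copies, being read almost wholly from mus. Of its 66 allelic reads in KO at day 0, 64 were mus and 2 were cas (3.0% cas, Wilson 95% interval 0.8 to 10.4). The other groups had 0 cas reads, of 13 in KO day 10, 5 in WT day 0 and 2 in WT day 10. Between 15.9 and 18.2% of chromosome 7 genes with 10 allelic reads were under 10% cas in the 12 libraries, so such a share is not rare in this table. In KO at day 0 Usp17la was at 53.0% cas (270 reads), Usp17lc at 52.4% (170), Usp17le at 41.6% (565) and Usp17lb at 38.8% (139). Usp17le differed between 2 KO replicates: 89 of 275 reads were cas in replicate 2 (32.4%, 27.1 to 38.1) and 121 of 241 in replicate 3 (50.2%, 43.9 to 56.5). Copies that share reads can also share allele calls, and this was not tested.

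**Figure D5:**
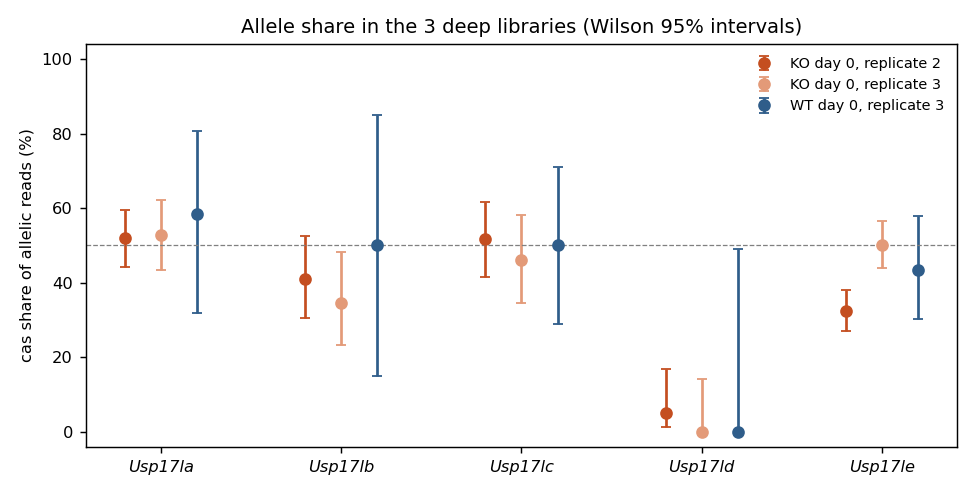
Share of cas among allelic reads (vertical axis, percent, with Wilson 95% intervals) for each Usp17l gene in the 3 deep libraries of day 0, both KO libraries left of WT. Usp17ld lies at 5.1% and 0% in the KO libraries and 0% in the WT library, and the dashed line marks 50%.

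H3K9ac, an acetyl mark of active promoters on the residue that G9a methylates, was mapped in 1 sample per group, so no difference between groups can be tested. None of the 5 Usp17l starts had a deposited peak within 1 kb in any sample. The share of all genes with a peak there was 40.0% in KO and 49.7% in WT at day 0, and 52.1% in KO and 50.8% in WT at day 10. Nor was there one within 2 kb. Most listed peaks were weak, with a median −log10 q between 0.14 and 0.38 in these samples. With only peaks of a −log10 q of at least 5 within 1 kb, the share of all genes was 1.6% in KO and 0.3% in WT at day 0. At day 10 it was 10.6% in KO and 9.6% in WT. At such shares 0 of the 5 says little. The lists reach down to a −log10 p of 2.0, so weaker signal is not listed, and how the ChIP alignments treated reads that fit several copies is not given in the sources used here.

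Peaks near a member were found only at Usp17le, and their enrichment was low. In KO at day 0 a peak lay inside the gene at chr7:111920484-111920808 (2.57-fold enrichment by the authors' caller, −log10 q 0.22), and another lay beyond its 3′ end at chr7:111914173-111914577 (2.52-fold, −log10 q 0.12). In WT at day 10 a peak lay inside the gene at chr7:111919200-111921405 (2.43-fold, −log10 q 0.17). The nearest peak to the start of Usp17le was 5.2 kb away in KO and 174.3 kb in WT at day 0, and 129.2 kb in KO and 4.6 kb in WT at day 10. For the other 4 genes it was 50.4 to 380.2 kb away. Trim6, the abundant neighbour, had a peak at its start in all 4 samples. It was at 2.58-fold in KO and 2.97-fold in WT at day 0 (−log10 q 0.2 and 0.72) and at 4.07-fold in KO and 4.67-fold in WT at day 10 (−log10 q 2.64 and 3.76). The Trim6 and Usp17le peaks of KO day 0 were thus alike in strength, near the median −log10 q of 0.22 of all peaks in that sample. The span of the family held 15 peaks in KO and 15 in WT at day 0, and 16 in KO and 10 in WT at day 10.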

How the data were processed

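Per the submitters' processing notes, the tools were TopHat and HOMER for RNA and Novoalign and MACS2 for ChIP, and the build was mm9; versions, strand, how multi-mapping reads were handled and the MACS2 control are not given in the sources used here. As deposited by the authors, the gene table gives each gene a signal, its reads brought to the same total in all libraries. Whole reads were recovered from it (99.998% of values whole within 0.01 scaled reads; 7 were not). The log2 ratios printed as such come from a column deposited by the authors, and its p-value and fold columns were not used. Read counts per allele are as deposited by the authors in a second table. Each peak carries, per the file headers, its fold enrichment, −log10 p and −log10 q.

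The 5 genes, the gene lists and the tests were chosen with earlier results of these data known. The main test was limma 3.58.1 in R 4.3.3, with trend and robust settings and a pseudocount of 1 before log2. It kept genes above 1 in at least 3 of the 12 libraries, all of which were fitted, and Benjamini-Hochberg adjusted p had to be under 0.05; the script was tested on simulated data. Errors are SD for means and SE for log2 changes. For the 5 genes KO against WT, and the difference between the lines' changes, were described and not tested; that second fit, planned as a test, subtracts differences known when the genes were chosen. For gene lists and other Usp genes KO against WT is given by fitted log2 values. Alternatives were edgeR 4.0.16 (quasi-likelihood) and DESeq2 1.42.0 on recovered reads, RLE and TMM scaling, pseudocounts of 0.1 and 5, no filter, only the compared groups, deep or shallow libraries, the sum without Usp17le, a depth term, replicate number as a block and each library left out. Scaling without Rn45s, and leaving out the 2 libraries with many olfactory receptor reads, were added after the data were seen. Likeness used Pearson's r on log2 values over genes averaging at least 10. Named genes are the 5 members, the 10 closest by likeness, the nearest neighbour on each side, neighbours averaging at least 10 or standing apart between lines, the 4 highest of the 2-cell-like list and the highest and lowest other Usp gene; Dux and 3 genes at 0 were named after their values were seen. Intervals are Wilson for shares and exact Poisson for reads. A count of 0 allows 3 reads. Promoters are from RefSeq, aligned with Biopython 1.88; Python 3.11.15, numpy 2.4.6, pandas 2.3.3, scipy 1.17.1 and matplotlib 3.10.9 were used. The H3K9me2 and input samples were not used here; 2 inputs carry conflicting day labels and were left unassigned.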

Additional observations from a re-analysis of the deposited data

Results flagged for a closer look

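Usp17lb, known as Dub1a, was picked out because its libraries moved in opposite ways in the lines: every KO library of day 10 was below every KO library of day 0, and every WT library of day 10 was above every WT library of day 0. The change in KO minus the change in WT was -3.66 on the log2 scale and ran from -4.83 to -2.58 over 23 alternatives. The difference was not tested, since it subtracts the day 0 difference between lines that was known when the genes were chosen. WT values of day 0 rest on 2, 0 and 35 recovered reads.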

How the results depend on the processing

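Of the alternative values of counts, sums and shares, 130 stayed close to the main value and 5 moved. A log2 ratio of sums was close if it shifted by less than the combined SD of the log2 sums in the compared groups. A count was close if it was unchanged, and an allele share if it lay in the main Wilson interval. The summed log2 difference between KO and WT at day 0 was 2.52, and 3.10 among deep libraries. The sum in KO at day 10 against day 0 was -0.39, and -0.80 without Usp17le. DESeq2 called 1 of the 5 genes in WT over time, in a fit that called 12.2% of all genes, and the limma fit of only the compared groups called 1 in KO, where it called 21.5% of all genes. With at least 20 allelic reads per library the cas share in WT day 10 was 14.3%, against 30.8% with at least 10, since fewer libraries remained. The cause of the others was not tested.

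Signs of small changes over time turned. Usp17lc in WT was -0.04 with a depth term, and -0.34 to 0.47 with 1 library left out. Usp17ld in WT was -1.39 to 0.58 so, and in KO -0.36 to 0.13, or 0.17 with RLE scaling, 0.10 without Rn45s and 0.26 with DESeq2. Usp17le in WT was 0.12 with RLE scaling and 0.12 with DESeq2, and -0.44 to 0.28 with 1 library left out. Usp17le in KO was -0.37 with a depth term and -0.15 to 0.31 with 1 left out. The difference between the changes was -0.68 to 1.28 for Usp17ld with 1 left out, and for Usp17le -0.08 with a depth term and -0.23 to 0.49 with 1 left out. Sums with 1 library left out ran from 2.29 to 2.76 (KO over WT, day 0), 1.54 to 2.02 (day 10), -0.54 to -0.24 (over time, KO) and 0.10 to 0.62 (over time, WT).

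With replicate number as a block limma called 0 of the 5 genes over time in WT and 0 in KO, and it changed no call. All genes called went to 850 in WT, against 911, and to 1612 in KO, against 1834. Same-numbered libraries correlated at -0.4 to 0.579 in their deviations from their group means, and not every pair was over 0.1. Such values cannot show whether same-numbered libraries were grown or prepared together. The highest pairs, KO and WT of day 0 numbered 3 (0.579) and 1 (0.427), are of the same depth class, as are KO replicate 2 and WT replicate 3 (0.597).

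Depth limits the WT and day 10 values, where single genes rest on 0 to 90 reads per library.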
